A study of Mus musculus with 42 samples.

Results

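RNA held by ribosomes of the kidney's proximal tubule (PT) was compared between day 10 and day 5 of ureteral obstruction. The comparison uses 14 of the 42 libraries of the series, chosen by their column names: 7 labelled as the PT fraction at day 10 (4 male, 3 female) and 7 labelled as the PT fraction at day 5 (4 male, 3 female). The change is the mean of the male and the female change at equal weight. Mice were 12 weeks old, and their kidneys had been obstructed by unilateral ureteral obstruction (UUO), in which the ureter of 1 kidney is tied. The control group is the contralateral, unobstructed kidney, labelled healthy, with 4 male and 3 female PT libraries. In translating ribosome affinity purification, ribosomes that carry a GFP tag in 1 cell type are pulled down with anti-GFP beads and the RNA they hold is sequenced. The labels name the beads but not the transgene, the promoter that drives it or the strain, so the cells that carry the tag are known from the labels only as PT. RNA was taken from the renal cortex. Libraries labelled total kidney (Total), of the same sexes and states, are used for 1 comparison. The protocol also keeps RNA that the beads did not bind, and whether Total is that RNA is not stated. The labels do not say that libraries of a group came from separate animals, so p-values measure the spread between these samples, which may be technical.

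The proximal tubule reabsorbs most of the filtered solute, water and protein. When the ureter is blocked, its cells lose carriers and metabolic enzymes, take on injury proteins such as Havcr1 and Vcam1, and lie in a kidney that fills with macrophages and matrix-forming fibroblasts. A comparison of day 10 with day 5 asks what goes on changing in the tubule once that injury state has formed.

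The 14 libraries held totals of 12.5 to 43.6 mega-counts (median 18.7). Levels are given as counts-per-million values (CPM), scaled between libraries by the trimmed mean of M-values. The PT label was checked against 16 defining PT genes, such as Lrp2 (megalin), Slc34a1 (phosphate carrier) and Hnf4a. All 16 had a ratio of PT to Total RNA above 1 at day 10, from 1.00 to 4.01 with a median of 2.46. Lrp2 was at 1.11 there. At day 5 Lrp2 was no higher in PT (96.5 CPM) than in Total (96.7 CPM), while Slc34a1 was at 624 and 272 CPM. The median ratio of 29 macrophage markers was 0.0566, that of 26 fibroblast markers 0.0588 and that of 18 endothelial markers 0.0864. Neutrophil markers were close to absent, with a summed level of 0.628 to 1.64 CPM at day 5 and 0.649 to 2.28 CPM at day 10.

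Some libraries stood apart for reasons that their labels do not give. The pseudogene Gm1821 was at 38.0 to 244 CPM in 20 of the 42 libraries and at 0.813 to 3.33 CPM in the other 22, and Ndufs5, a subunit of respiratory complex I, went the other way (1.01 to 4.76 CPM and 25.7 to 93.7 CPM). All 7 PT libraries of day 5 were on the low side of Gm1821, but only 2 of the 7 of day 10 (male replicate 1 and female replicate 1). Of the 7 contralateral ones 2 were low, again male replicate 1 and female replicate 1. Total libraries split by state and replicate number in the same way. What sets replicate 1 apart is not given by the labels. In the PT libraries 244 genes differed between the sides beyond the states, at an adjusted p under 0.05 in edgeR. Lars2, a mitochondrial tRNA ligase, was at 2252 to 5029 CPM in 7 of the 14 libraries and at 10742 to 39433 CPM in the other 7, with both days on both sides. A clock score, the mean log2 CPM of Arntl, Npas2, Clock, Nfil3 and Cry1 minus that of Per1 to Per3, Nr1d1 and their partners, ran from 0.82 to 1.42 in day 5 females and from -1.76 to -0.35 in day 10 females. In males it ran from -1.36 to -0.64 at day 5 and from -0.51 to 0.35 at day 10. The parts that these differences have in the results were not tested beyond the fits given beside them.

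**Figure D1:**
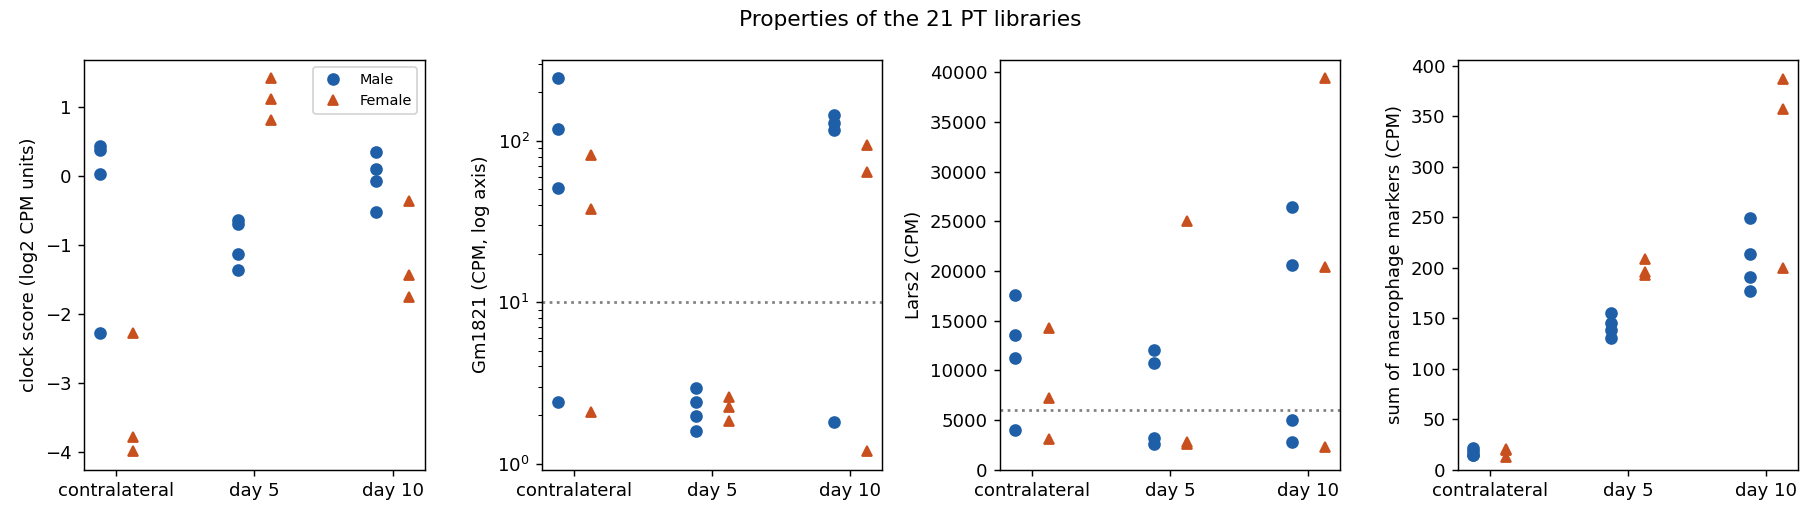
Clock score, Gm1821 level on a log axis, Lars2 level and summed macrophage markers in each of the 21 PT libraries, by state and sex. The 7 day 5 libraries all lie under the dotted Gm1821 line at 10 CPM, and 2 of the 7 day 10 libraries do; both days lie on both sides of the Lars2 line at 6000 CPM.

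Between day 5 and day 10 few transcripts passed the test, and nearly all of those rose. DESeq2 called more, 179 higher and 13 lower. Of 14932 genes tested, 63 rose and 3 fell at least 2-fold at an adjusted p under 0.05 (edgeR quasi-likelihood test, Benjamini-Hochberg adjustment), which is 0.442% of the genes (0.422% higher and 0.0201% lower). Without the fold minimum 75 passed (0.502%), and 1573 (10.5%) had an unadjusted p under 0.05. The rises ran from 1.01 to 4.52 on the log2 scale with a median of 1.67, while the median over all tested genes was 0.03, with 54.3% positive (-0.03 in libraries of low Gm1821). The largest rises were those of Anxa8, Gm4875, Jakmip1 and Retnla. Anxa8 and Retnla stayed called in all 14 fits that left out 1 library, Jakmip1 in 8 and the pseudogene Gm4875 in 3. Among the 63 were epithelial and cytoskeletal genes (Anxa1, Cald1, Krt19, Cldn7, Fblim1) and macrophage-associated transcripts (Mmp12, Lyz2, Ms4a7), and the 3 that fell were Gsta2, Sprr1a and Iapp. All 66 had the same sign in males and in females, but they were called on the mean of both sexes. Nothing is read from that match.

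Of the 63 that rose, 53 had already been above the contralateral mean at day 5, and 37 were under 1 CPM in contralateral kidneys. At day 10, 37 had a mean of 5 CPM or more and 26 were under it. In 43 of the 63 the day 10 and day 5 libraries did not overlap within either sex, where 0.864% of all tested genes were higher without overlap. The 63 were called on the same difference, so nothing is read from that share. Over all 7 against 7 libraries 31 of the 63 did not overlap (0.395% of all genes), nor did 1 of the 3 that fell (0.0804%). Female replicate 3 was the highest of the 7 day 10 libraries for 32 of the 63, and male replicate 1 the lowest for 23.

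The number called depended on single libraries and on the Gm1821 split. It fell to between 22 and 36 rises without male day 5 replicates 1, 2 or 3, male day 10 replicate 3, any of the 3 female day 5 libraries, or female day 10 replicate 3. Within the 11 PT libraries of low Gm1821 (7 of day 5, 2 of day 10 and 2 contralateral), 20 genes rose (0.131% of those tested) and 1 fell (0.00657%). Of the 66 genes, 65 could be tested there, all 65 had the same sign, 42 were still at least 2-fold and 13 were still called. These 13 were Anxa8, Retnla, Kcnh8, Sox8, Adgra1, Dsp, Cald1, Timp2, Gprc5a, Anxa1, Fblim1, Rgs5 and Cldn7. With the split as a term in the model of all 21 libraries, 8 genes rose (0.0536%) and none fell, and 5 of the 66 stayed called: Cldn7, Sox8, Adgra1, Dsp and Retnla. All 66 kept their sign there. In libraries of low Lars2 130 genes rose and 101 fell, in those of high Lars2 none rose and 1 fell (1046 at an unadjusted p under 0.05), and all 66 had the same sign on both sides. With the clock score as a covariate 30 genes rose and 26 of the 66 stayed called. The 66 were called in a fit that holds all of these libraries, so nothing is read from the signs they kept.

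**Figure D2:**
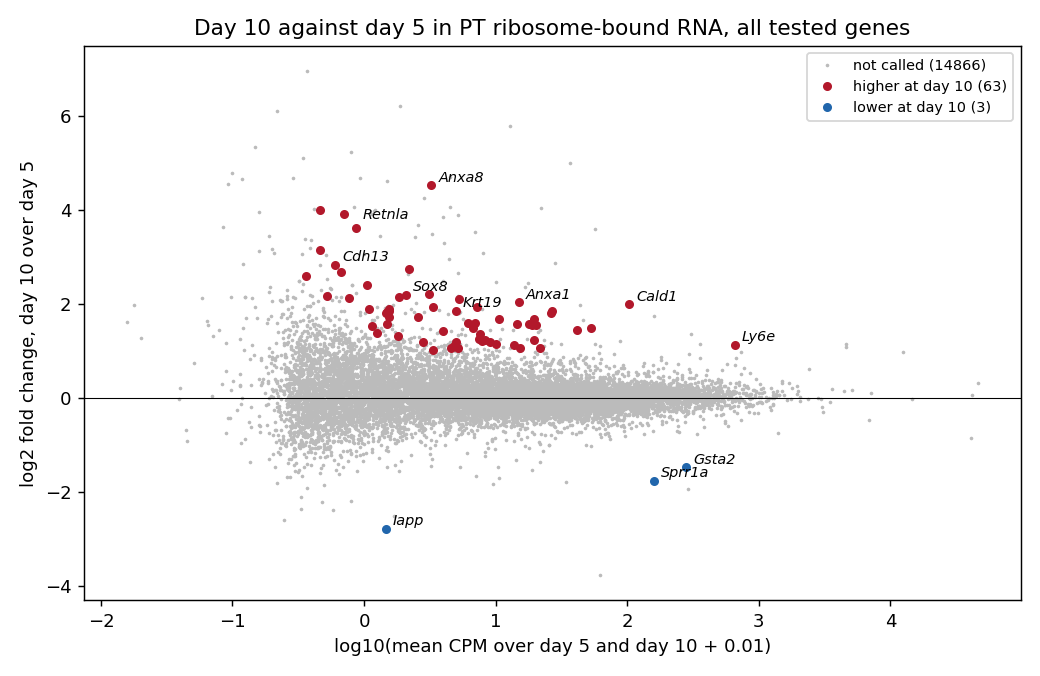
Log2 fold change of day 10 over day 5 against mean level in PT ribosome-bound RNA for all 14932 tested genes, with called genes in colour. The 63 red points lie above 1 and the 3 blue points below -1; grey points further out are genes whose libraries spread too widely to be called.

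Among the annexins, which bind membranes in the presence of calcium, Anxa8 and Anxa1 rose. Anxa8 was at 0.343, 0.158, 0 and 0.224 CPM in the day 5 males and 0.275, 0.342 and 0.279 CPM in the day 5 females, then at 1.26, 4.51, 5.23 and 0.362 CPM in the day 10 males and 7.78, 2.46 and 22.1 CPM in the day 10 females. Every day 10 library was above every day 5 library, and the day 10 libraries themselves spread widely. The change was 4.52 ± 0.70 (SE, n = 7 per day, adjusted p = 0.00544, edgeR), from 31 counts in all at day 5 to 948 at day 10. It was 3.71 in libraries of low Gm1821. Anxa1, best known as a brake on inflammation, lay between 4.54 and 7.61 CPM at day 5 (median 5.80) and between 13.5 and 40.5 CPM at day 10 (median 19.7), without overlap. Its change was 2.03 ± 0.28 (adjusted p = 0.00215, edgeR). The 11 tested annexins had a median of 0.35 with all 11 positive (7 of 11 in libraries of low Gm1821, median 0.18). The abundant members did not pass: Anxa5 had a mean of 821 ± 139 CPM (SD, n = 7) at day 5 and 1090 ± 144 CPM at day 10, and Anxa3 338 ± 81.5 and 457 ± 107 CPM.

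The actin-binding genes Cald1 and Cnn2 rose, and so did Fblim1, which joins actin to cell-matrix contacts. Cald1 (caldesmon, a regulator of actomyosin) was at 42.9, 23.1, 37.4 and 40.8 CPM in day 5 males and 65.1, 66.7, 50.7 and 131 CPM in day 10 males. Female libraries were at 33.3, 29.2 and 56.9 CPM and then 183, 140 and 544 CPM. The days did not overlap within a sex, and 1 female library stood far above the rest. The change was 1.99 ± 0.29 (adjusted p = 0.0033, edgeR) and 1.53 in libraries of low Gm1821. Cnn2 (calponin 2) went from 4.92 to 14.2 CPM at day 5 (median 8.90) to 15.5 to 60.7 CPM at day 10 (median 23.7), a change of 1.56 ± 0.25 (adjusted p = 0.00517, edgeR). Fblim1 (migfilin) went from 8.76 to 16.2 CPM (median 11.9) to 22.2 to 76.0 CPM (median 37.9). Neither gene's days overlapped, and the change of Fblim1 was 1.85 ± 0.25 (adjusted p = 0.00175, edgeR). Gsn (gelsolin, which severs actin filaments) rose by 1.67 ± 0.31 with overlap in males, where day 10 libraries were at 10.2, 21, 36.3 and 76.8 CPM. It was at 0.66, under 2-fold, in libraries of low Gm1821. The call was lost without female day 5 replicate 1 or 2 or female day 10 replicate 3. Of 38 actin-binding genes tested 2 rose (0.422% of all genes did) and none fell. Their median was 0.30, and 32 were positive (27 in libraries of low Gm1821). This and the other gene lists were chosen with earlier results of these data known, so nothing is read from how many members were called.

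Among genes of epithelial junctions and keratins, a few rose. Cldn7, a tight-junction claudin of the distal nephron, was at 6.34, 7.70, 7.26 and 7.09 CPM in day 5 males and 18.1, 21, 17.3 and 14.6 CPM in day 10 males. In females it was at 6.82, 8.76 and 7.68 CPM and then 21.3, 20.9 and 39.6 CPM. The days did not overlap, the day 5 libraries lay close together and 1 day 10 female stood above the rest. The change of 1.57 ± 0.20 (adjusted p = 0.00175, edgeR) was 1.4 in libraries of low Gm1821. Krt19, a keratin of simple epithelia, went from 1.60 to 3.35 CPM at day 5 (median 2.06) to 3.10 to 14.1 CPM at day 10 (median 8.51). Its days did not overlap within a sex. Its change was 1.86 ± 0.29 (adjusted p = 0.00497, edgeR) but 0.65, under 2-fold, in libraries of low Gm1821. Dsp (desmoplakin, which ties keratins to desmosomes) went from 2.37 to 4.59 CPM to 5.14 to 14.9 CPM. Its change was 1.48 ± 0.26 (adjusted p = 0.00961, edgeR) and 2.04 in libraries of low Gm1821. Cldn3, the cadherin Cdh13 and the integrin Itgb4, a part of hemidesmosomes, rose by 1.45, 2.83 and 1.56. Cldn3 was at 0.49 in libraries of low Gm1821. Cldn3 and Itgb4 stayed called in 4 of 14 fits that left out 1 library, and Cdh13 in 10. Plet1 and Gprc5a, found in epithelia that line ducts or airways, rose by 1.59 and 1.35, and stayed called in 4 and in all 14 of those fits. Of 9 genes of the cornified envelope and stratified epithelium, Dsp rose and Sprr1a fell (median -0.15, 4 positive). By list, 3 of 22 claudin and junction genes rose (median 0.20) and 1 of 10 keratin and vimentin genes (median 0.44, and -0.07 in libraries of low Gm1821). Of 27 integrins and laminins 1 rose (median 0.15). Of all tested genes 0.422% rose. Krt18, uncalled, was at a mean of 33.9 CPM at day 5 and 58.6 CPM at day 10.

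**Figure D3:**
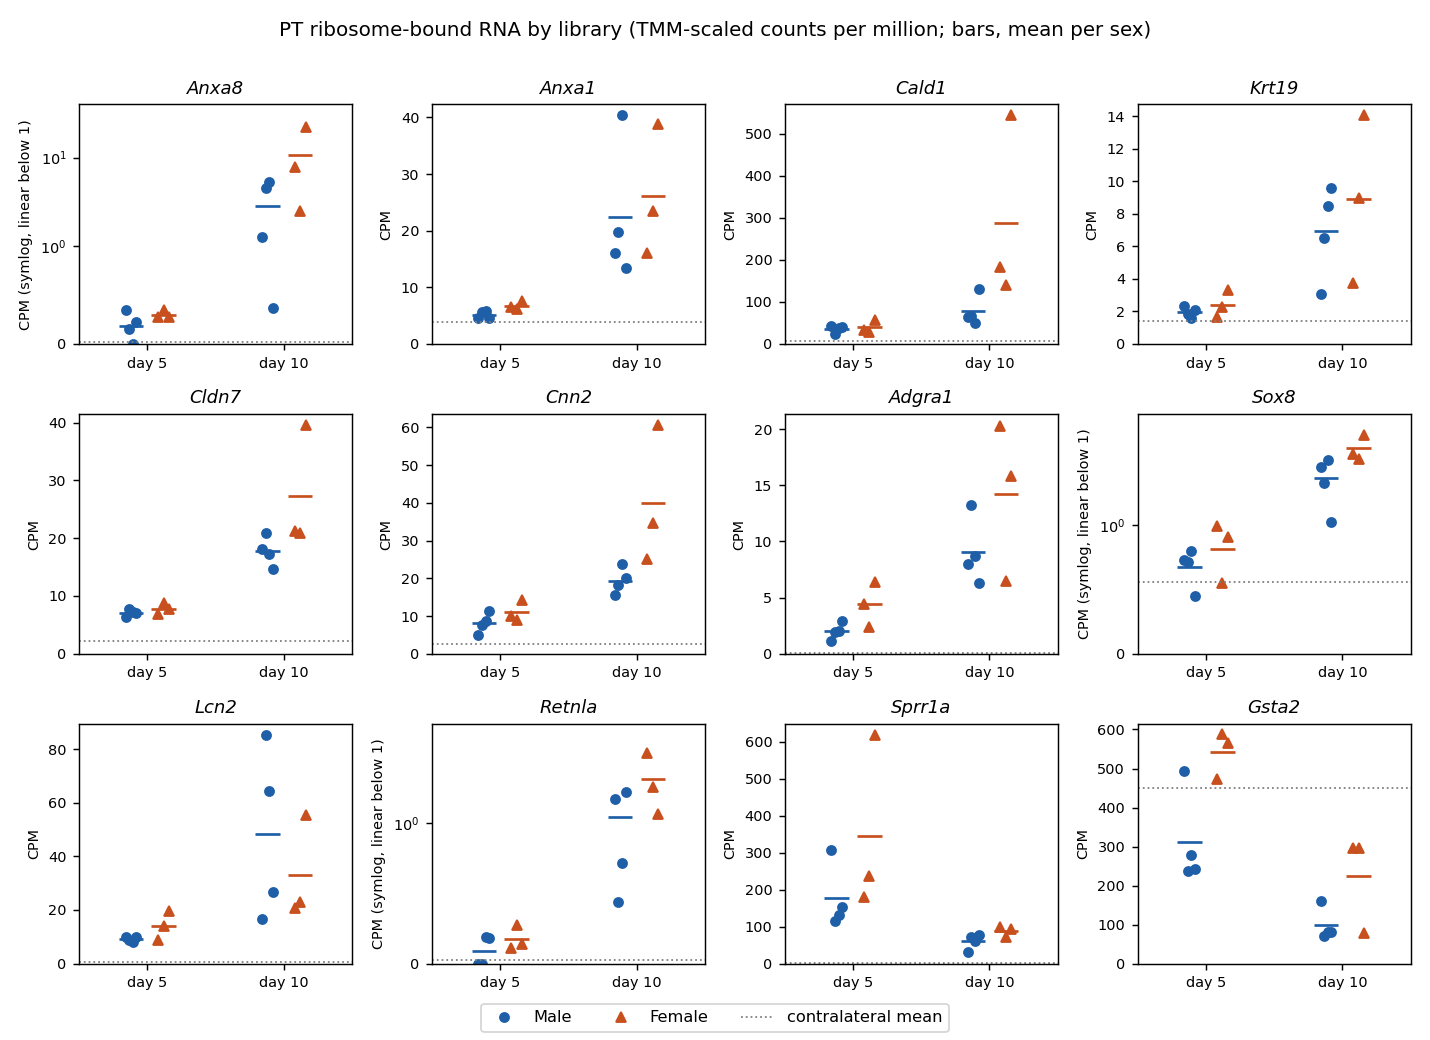
CPM of 12 genes in each PT library at day 5 and day 10, males as circles and females as triangles, bars at the mean of a sex and a dotted line at the contralateral mean. Anxa8, Sox8 and Retnla have an axis that is linear below 1 and logarithmic above; 10 of the 12 genes lie higher at day 10, and Sprr1a and Gsta2 lie lower.

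Regulators were few. Sox8, a transcription factor of the SoxE group, was at 0.728, 0.711, 0.801 and 0.449 CPM in day 5 males and 3.18, 2.31, 3.61 and 1.06 CPM in day 10 males. Female libraries were at 0.991, 0.548 and 0.907 CPM and then 4.10, 3.72 and 5.94 CPM. All 7 day 10 libraries were higher than all 7 of day 5. The change was 2.19 ± 0.33 (adjusted p = 0.00443, edgeR), and it was 2.27 in libraries of low Gm1821. An opposite-strand gene, 2810468N07Rik, overlaps Sox8, and whether counting used strand is not given in the sources used here. The other 13 Sox and Runx genes tested were not called, and no member of 23 PT and kidney transcription factors was (median -0.16). Adgra1, an adhesion G protein-coupled receptor, went from 1.11 to 6.42 CPM (median 2.40) to 6.29 to 20.3 CPM (median 8.70), a change of 1.93 ± 0.29 (adjusted p = 0.00449, edgeR) with no overlap within a sex. It was among the 5 genes that stayed called with the Gm1821 term. Rgs5, a brake on G protein signalling best known from pericytes, rose by 1.24 and stayed called in 2 of 14 fits that left out 1 library. Of 22 genes of G protein signalling 2, Rgs5 and Adgra1, were called (0.442% of all genes were), with a median of 0.35.

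Among genes of injury, iron and matrix, Lcn2 and Timp2 rose. Lcn2 (lipocalin 2, which binds the iron carriers of bacteria and serves as a kidney injury marker) was at 9.76, 8.84, 8.20 and 9.82 CPM in day 5 males and 16.5, 85.1, 64.2 and 26.9 CPM in day 10 males. In females it was at 8.75, 14 and 19.7 CPM and then 20.8, 23.0 and 55.2 CPM. The days did not overlap within a sex. The change was 1.81 ± 0.32 (adjusted p = 0.0101, edgeR). It was 0.70, under 2-fold, in libraries of low Gm1821, and the call was lost without female day 5 replicate 1 (adjusted p = 0.0537, edgeR). Timp2, an inhibitor of matrix proteases, went from 4.07 to 6.70 CPM (median 4.65) to 8 to 46.2 CPM (median 10.2) without overlap, a change of 1.68 ± 0.27 (adjusted p = 0.00517, edgeR). Ltbp2 and Ccdc80, both matrix proteins, rose by 1.85 and 1.59, and Mxra8 by 1.24, and stayed called in 4, 11 and 3 of 14 fits that left out 1 library. Amotl1, a partner of YAP, rose by 1.06, and the NF-kB-responsive gene Tnfaip2 by 1.21. Hk1, a hexokinase, rose by 1.15 ± 0.18 (adjusted p = 0.00517, edgeR), from 4.93 to 7.49 CPM to 9.94 to 19.7 CPM without overlap. Hk1os overlaps it on the opposite strand. Crip2, a LIM domain protein, rose by 1.57 ± 0.25, from a median of 9.04 CPM to one of 22.0 CPM. In libraries of low Gm1821 Hk1, Crip2, Amotl1, Tnfaip2 and Mxra8 were at 0.90, 0.94, 0.87, 0.81 and 0.79, all under 2-fold. Timp2, Ltbp2 and Ccdc80 were at 1.52, 1.90 and 1.34 there.

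Several other rises were lost when single libraries were left out. Serpinb6b, an inhibitor of serine proteases, was at 39.9, 26.5, 18.3 and 34 CPM in day 5 males and 49.8, 108, 102 and 99.1 CPM in day 10 males. Day 5 females were at 26.5, 21.4 and 25.9 CPM and day 10 females at 44.8, 67.7 and 78 CPM. The days did not overlap within a sex, and the change of 1.48 ± 0.29 (adjusted p = 0.0232, edgeR) stayed called in 7 of 14 fits that left out 1 library. Bst1 (CD157, an enzyme that uses NAD) rose by 2.21 ± 0.46, Pltp (a phospholipid carrier) by 1.73 ± 0.38, Casp12 by 1.42 ± 0.28 and Ckmt1 (mitochondrial creatine kinase) by 1.25 ± 0.24. They stayed called in 5, 4, 6 and 11 of those 14 fits. Bst1 and Pltp overlap Fbxl5 and Ctsa on the opposite strand, and Ckmt1 and Serpinb6b have close copies. Slc52a3, a riboflavin carrier, rose by 1.06 ± 0.18 toward its contralateral mean of 29.4 CPM. Its median was 12.4 CPM at day 5 and 26.1 CPM at day 10, and levels were lower in females on both days. In libraries of low Gm1821 Serpinb6b, Pltp and Slc52a3 were at 0.81, 0.98 and 0.75, all under 2-fold. Bst1, Casp12 and Ckmt1 were at 1.49, 1.17 and 1.15 there.

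Lcn2 was the only one of 16 obstruction markers that was called. Havcr1 (KIM-1) had a mean of 1747 ± 257 CPM at day 5 and 1051 ± 309 CPM at day 10 (change -0.75 ± 0.20, adjusted p = 0.101, edgeR). Spp1 (osteopontin) went from a mean of 52556 CPM to one of 29883 CPM (-0.85 ± 0.24, adjusted p = 0.124), and Vcam1 from a median of 589 to one of 468 CPM (-0.36 ± 0.17). All 3 remained far above their contralateral means of 11.4, 2037 and 2.79 CPM. The carriers Slc34a1, Slc5a2 and Slc22a6 differed by 0.15 ± 0.22, 0.42 ± 0.23 and 0.37 ± 0.26, none called. In males they were at 0.82, 0.78 and 1.20 and in females at -0.51, 0.05 and -0.46, none called in either sex. Slc34a1 stood at a mean of 568 CPM at day 5 and 739 CPM at day 10, against 3555 CPM in contralateral kidneys. None of 40 PT solute carriers was called (median -0.03), nor any of 24 genes of endocytosis and brush border, 26 of gluconeogenesis, 34 of fatty acid oxidation or 35 of the respiratory chain (medians 0.19, 0.06, 0.06 and 0.05).

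Sprr1a, a cornified-envelope protein that many injured cells make, fell. It was at 307, 116, 130 and 153 CPM in day 5 males and 31.4, 70.9, 61.4 and 76.2 CPM in day 10 males. Female libraries were at 180, 237 and 618 CPM and then 98.1, 72.8 and 93.9 CPM. Every day 10 library was below every day 5 library, and every one of them was above the contralateral range of 1.12 to 5.49 CPM. The change was -1.76 ± 0.31 (adjusted p = 0.0109, edgeR), and -2.15 in libraries of low Gm1821. Gsta2, a glutathione transferase, was at 495, 237, 277 and 242 CPM in day 5 males and 160, 71.9, 80.9 and 81.1 CPM in day 10 males. In females it was at 474, 588 and 566 CPM and then 297, 298 and 78.5 CPM. The days did not overlap within a sex, but contralateral libraries spanned 88.0 to 976 CPM, on both sides of day 5. Day 10 values of 71.9, 78.5, 80.9 and 81.1 CPM lay under that range, and the others lay within it. The change of -1.47 ± 0.32 (adjusted p = 0.0405, edgeR) held in 3 of 14 fits that left out 1 library. It was -0.92, under 2-fold, in libraries of low Gm1821. Gsta2 has a close copy, Gsta1, and reads may have been split between them. It was the only gene called among 35 glutathione and antioxidant genes. Iapp (amylin, an islet peptide) fell by 2.77 ± 0.49 (adjusted p = 0.0106, edgeR) from a mean of 2.53 CPM to 0.375 CPM, and it overlaps Slco1a5 on the opposite strand.

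Promoter windows of the RefSeq table (build GRCm38.p6; 250 bases up to the start) were available for 53 of the 66 genes. In the 67 windows of genes that rose, the AP-1 letters TGANTCA stood in 10.4%, against 6.75% of 32851 windows of all genes. The TEAD letters GGAATG stood in 17.9% against 12.6%, the RUNX letters TGTGGT in 28.4% against 14%, and the SOX letters ACAANG in 31.3% against 36.3%. For the other 3 of 7 motifs searched, the shares were 2.99% against 1.47% (CArG box), 1.49% against 3.90% (kappa B) and 4.48% against 7.02% (STAT, TTCNNNGAA). Both strands were searched, and these matches describe the letters only. The windows of 2 genes that rose and of Sprr1a, which fell, are shown because the AP-1 letters stand in all 3. Capitals mark AP-1 matches and, in Fblim1, also the TEAD match and the RUNX match. The windows are chr4:141606053-141606302, minus strand (Fblim1), chr6:34709194-34709443, plus strand (1 of the Cald1 starts) and chr3:92485882-92486131, minus strand (Sprr1a).
Fblim1: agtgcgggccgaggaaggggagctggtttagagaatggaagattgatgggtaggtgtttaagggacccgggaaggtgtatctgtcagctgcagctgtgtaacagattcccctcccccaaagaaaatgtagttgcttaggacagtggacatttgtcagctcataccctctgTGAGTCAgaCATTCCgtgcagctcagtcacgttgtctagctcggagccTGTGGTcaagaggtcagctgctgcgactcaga
Cald1: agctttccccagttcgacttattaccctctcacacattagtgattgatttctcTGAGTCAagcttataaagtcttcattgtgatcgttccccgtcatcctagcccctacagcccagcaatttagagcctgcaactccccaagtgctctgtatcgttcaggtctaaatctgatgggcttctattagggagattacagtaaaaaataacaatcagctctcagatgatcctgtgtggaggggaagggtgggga
Sprr1a: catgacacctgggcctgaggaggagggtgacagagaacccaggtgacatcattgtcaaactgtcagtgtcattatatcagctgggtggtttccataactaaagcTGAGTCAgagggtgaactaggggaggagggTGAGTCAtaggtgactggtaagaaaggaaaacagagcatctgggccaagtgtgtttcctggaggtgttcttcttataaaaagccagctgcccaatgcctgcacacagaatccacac

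Macrophage-associated genes rose in the PT fraction at low levels. Retnla, a secreted product of alternatively activated macrophages, was at 0, 0, 0.188 and 0.179 CPM in day 5 males and 1.55, 0.44, 0.713 and 1.76 CPM in day 10 males. Female libraries were at 0.11, 0.274 and 0.14 CPM and then 3.53, 1.90 and 1.18 CPM. The days did not overlap, and the change was 3.61 ± 0.58 (adjusted p = 0.00623, edgeR). Lyz2 (lysozyme) rose by 1.06, and the macrophage genes Ms4a7 and Mmp12 (a macrophage elastase) by 1.88 and 2.68. The 3 stayed called in 7, 9 and 11 of 14 fits that left out 1 library. In libraries of low Gm1821 Lyz2 was at 0.58, under 2-fold, Ms4a7 at 1.91 and Mmp12 at 2.02. Csf1r, the receptor of macrophage growth factors, passed the p-value but not the fold (0.96 ± 0.20, adjusted p = 0.0354, edgeR). Of 27 tested macrophage markers 2 were called (0.442% of all genes were), 24 were positive and the median was 0.63 (0.53 in libraries of low Gm1821). The summed level of all 29 was 12.8 to 21.1 CPM in contralateral kidneys, 131 to 209 CPM at day 5 and 177 to 387 CPM at day 10. At day 10, 9 of the 63 risers were less than 0.1 times as high in PT as in Total RNA: Retnla, Mmp12, Penk, Npr3, Ms4a7, Nkd2, Fcrls, Gimap4 and Lyz2. The macrophage, fibroblast and endothelial lists had median ratios in the same range (above). So did the loop of Henle and distal tubule (0.0900), lymphocyte (0.0723), neutrophil (0.0677) and erythrocyte (0.0796) lists. The median ratios of podocyte and collecting duct markers were higher, at 0.437 and 0.104. The part of RNA from other cells in these rises was not tested. Another 18 risers were higher in PT than in Total, among them Anxa8 (2.73 times), Mybpc2 (2.68), Unc5cl (2.65), Slc52a3 (2.21), Sox8 (1.60) and Ly6e (1.42). More cells of a type and more RNA per cell cannot be told apart in such bulk samples.

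Fibroblast markers were positive in 23 of 23 tested genes, with none called and a median of 0.54 (21 of 23 and 0.73 in libraries of low Gm1821). Their summed level was 215 to 553 CPM at day 5 and 337 to 777 CPM at day 10. Cell cycle genes, which drive DNA replication and mitosis, had a median of 0.63 with 44 of 46 positive and none called, and 0.95 with 43 of 46 positive in libraries of low Gm1821. Ccnd1 (cyclin D1), the second most abundant of them, was at a mean of 59.1 CPM at day 5 and 101 CPM at day 10. Ribosomal protein genes had a median of -0.21 with 33 of 36 negative, and the range of single genes was -0.83 to 0.16. Among genes of the unfolded protein response, 22 of 26 were positive (median 0.25), and Hspa5 (BiP), their main chaperone, was at 147 and 227 CPM (0.63 ± 0.16, adjusted p = 0.0932, edgeR). In libraries of low Gm1821 that list's median was 0.03.

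Class II, interferon and chemokine lists had positive medians in the comparison of all libraries and negative ones in libraries of low Gm1821, while complement (0.55 and 0.19) and NF-kB genes (0.16 and 0.08) stayed above 0. Class II antigen presentation had a median of 0.61 with 10 of 10 positive. In libraries of low Gm1821 the median was -0.04 with 4 of 9 positive. Cd74, the invariant chain, had a mean of 1927 ± 599 CPM at day 5 and 2925 ± 1387 CPM at day 10, and H2-Aa 204 ± 70.4 and 381 ± 212 CPM. Interferon response genes had a median of 0.41 with 29 of 36 positive, against -0.09 with 13 of 36 there, and chemokines and cytokines 0.30 against -0.06. No gene of the class II, interferon, chemokine and complement lists was called. The loop of Henle and distal tubule list went from 0.44 to 0.08, with 9 of 17 positive there, and so stayed above 0.

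**Figure D4:**
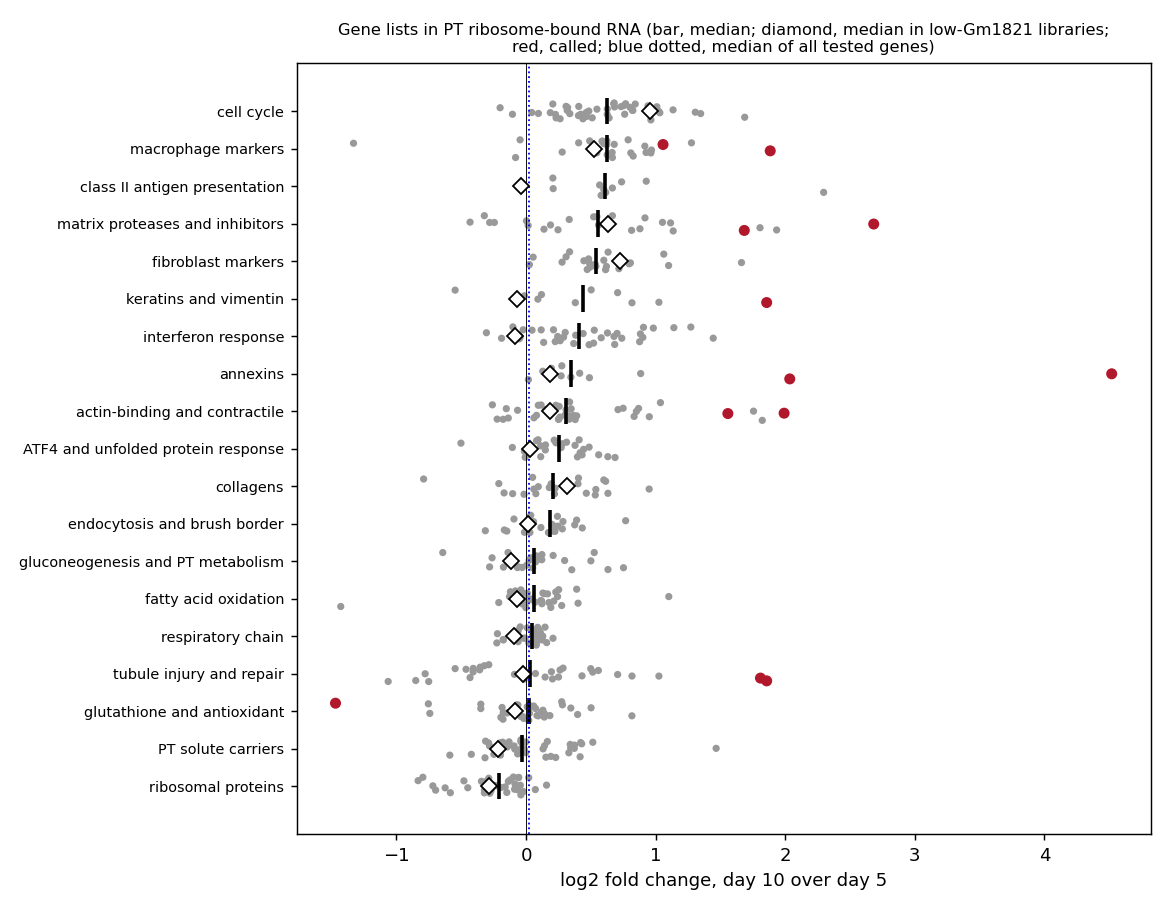
Log2 fold change of day 10 over day 5 for the tested members of 19 gene lists, with the median of each list as a bar, the median in libraries of low Gm1821 as a diamond and called genes in red. Bars and diamonds lie together for macrophage, fibroblast and matrix protease lists and apart for class II, interferon and keratin lists.

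Each sex was also tested alone. In this test, males gave 5 genes (0.0335%; 0.0268% higher, 0.0067% lower): Anxa1 (2.12 ± 0.37), Adgra1, Lcn2 and Crispld2 rose, and Xirp2 fell by 2.02. Females gave 7 (0.0469%; 0.0402% higher, 0.0067% lower): Cald1 (2.86), Timp2, Fblim1, Gprc5a, Cldn7 and Nr1d1 rose, and Nfil3 fell by 1.69. At an unadjusted p under 0.05 there were 1306 genes in males (8.75%) and 1187 in females (7.95%). Crispld2, Xirp2, Nr1d1 and Nfil3 are named here after their values were seen. No gene differed between the sexes in its change at an adjusted p under 0.05 in edgeR, while 768 (5.14%) did at an unadjusted p under 0.05 and DESeq2 called 11. Nr1d1 (REV-ERB alpha) and Nfil3, both parts of the circadian clock, changed in females. Both genes enter the clock score given above, so its fall in females is not a separate observation. In males they differed by -0.09 and 0.75, neither called. Nfil3 came closest to a difference between the sexes (-2.44, adjusted p = 0.0511, edgeR).

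The change in PT was then set against the change in Total RNA in 1 model of all 42 libraries. Of the 63 risers, 58 were also positive in Total and 9 were called higher there. These genes were chosen by their change in PT. It differed beyond the threshold for 4 of 17110 genes (0.0234%, with 6.26% at an unadjusted p under 0.05), all larger in PT. Among them were Gsn by 1.74 ± 0.34 (adjusted p = 0.0408), Cldn7 by 1.53 ± 0.24 (adjusted p = 0.00291) and Hk1 by 1.30 ± 0.24 (adjusted p = 0.0257, all edgeR). The change of these 3 in Total lay between -0.12 and 0.06. Cldn7 was at a mean of 59.0 CPM in Total at day 5 and 61.7 CPM at day 10, and went from 8.11 to 24.4 CPM in PT on the same scale. Hk1 stood at 57.5 and 52.6 CPM in Total against 6.93 and 15.6 CPM in PT. All 3 were thus lower in PT than in Total on both days, and they stayed called with the Gm1821 split as a term. Cldn7 was also called in all 28 fits that left out 1 library, Hk1 in 15 and Gsn in 7. Gsn was not called with RLE factors (adjusted p = 0.0903), without a filter on low counts (0.155) or with a replicate block (0.0606), nor Hk1 with library size only (0.158, all edgeR). Deviations of same-numbered PT and Total libraries correlated at 0.193 to 0.677 at day 10 and at -0.086 to 0.456 at day 5, which the model without the block does not use. With the block 20 genes were called. Retnla changed by 3.70 in Total, close to its change in PT, and Gsta2 by -1.44.

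**Figure D5:**
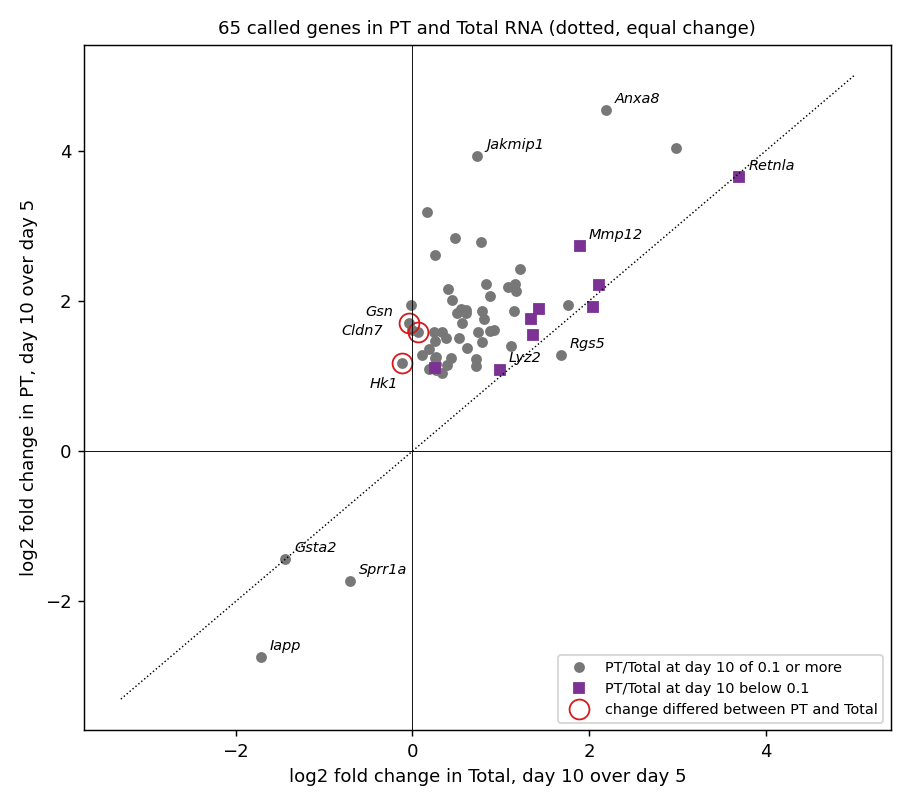
Log2 fold change of day 10 over day 5 in PT against that in Total RNA for 65 of the 66 called genes, with the line of equal change. The 3 circled genes have a change near 0 in Total, and the 9 squares mark risers less than 0.1 times as high in PT as in Total at day 10.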

How the data were processed

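Raw counts per gene symbol in 42 libraries were deposited by the authors, who used STAR 2.0.4b and featureCounts 1.4.5 of Subread, per the submitters' processing notes. An RPKM table was also deposited by the authors and served as an alternative scale. Genome build, annotation and strand setting are not given in the sources used here. Of 40701 symbols, 12632 had no count in any library, and 14932 passed the filter of edgeR (filterByExpr) in the 21 PT libraries. Counts were scaled by TMM and fitted with 1 mean per sex and state (edgeR 4.0.16, robust quasi-likelihood, R 4.3.3). Calls required a change of at least 2-fold and an adjusted p under 0.05 (Benjamini-Hochberg, over all tested genes). Fold changes are log2 values with their SE. Male and female changes were averaged. The interaction of fraction and day was fitted on 42 libraries and 17110 genes. Alternatives used limma 3.58.1 and DESeq2 1.42.0, other scaling and filters, covariates and left-out libraries. The clock covariate and the fits on the Gm1821 split at 10 CPM were added after the data were seen.

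One called gene is not reported here by name or value. Members and gene lists were chosen with earlier results of these data known. Values per library are given for called genes with at least 5 CPM in 1 sex and no overlap within a sex (the 20 largest rises and up to 10 falls), for up to 4 called and 3 abundant uncalled members of a list, for 16 obstruction markers and for genes called in an interaction. Sox8, Retnla, Gsn and Iapp have their values given as called members of a list or comparison, some chosen after their values were seen. The fit was tested on simulated counts with known changes. Same-numbered PT and Total libraries lay on the same side of the Gm1821 split in 21 of 21 cases, but the labels do not say that they share an animal.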

Additional observations from a re-analysis of the deposited data

Results flagged for a closer look

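Gsn (1.74), Cldn7 (1.53) and Hk1 (1.30) changed more in PT than in Total RNA between the days, in units of log2 fold change, by the test of the difference itself. Leaving out 1 library kept the call of Cldn7 in 28 of 28 fits, of Hk1 in 15 and of Gsn in 7.

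In the groups of 4 males, single libraries lay far from the other 3 in 16 of 196 sets examined (8.16%). The cut gives about 1 in 20 for independent, normally spread values. CPM values of many genes in the same 4 libraries need not be such, so nothing is read from the share. At day 5 the highest male library stood apart for Jakmip1 (0.316 CPM), Ly6e (847 CPM), Pmp22 (3.06 CPM), Gsta2 (495 CPM), Lrp2 (119 CPM) and Cd74 (2930 CPM). The lowest did so for Amer2 (0.632 CPM), Mxra8 (6.51 CPM) and the total count (17.6 mega-counts). At day 10 the highest male library stood apart for Unc5cl (8.41 CPM), H2-M2 (6.68 CPM), Mlf1 (3.37 CPM), Hk1 (19.7 CPM) and Gsta2 (160 CPM), and the lowest for Timp2 (8 CPM) and Serpinb6b (49.8 CPM). Gsta2 was highest in male replicate 1 on both days.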

How the results depend on the processing

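The 63 rises and 3 falls were 30 and 1 with a filter of 5 CPM in 3 libraries, 179 and 13 with DESeq2, 23 rises with limma on log2(RPKM + 1), 10 falls with limma-voom, 101 and 6 with only day 5 and day 10 libraries, 160 and 19 with Lars2 as a covariate, 30 and 1 with the clock score, 130 and 101 in libraries of low Lars2, 0 and 1 in those of high Lars2, 8 and 0 with the Gm1821 term, and 20 and 1 in libraries of low Gm1821. Without a fold minimum 5 genes fell. Leaving out 1 library gave 22 to 85 rises and 1 to 12 falls, and 19 of the 66 genes stayed called in all 14 such fits. Among them were Anxa8, Retnla, Kcnh8, Sox8, Anxa1, Cald1, Adgra1, Npr3, Krt19, Fblim1, Timp2, Cldn7, Crip2, Cnn2, Dsp, Gprc5a, Hk1 and Sprr1a. Falls numbered 5 without male day 10 replicate 1 or female day 10 replicate 2, 12 without female day 10 replicate 1 and 1 without female day 10 replicate 3.

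In males the 5 calls became 0 with RLE factors, library size only or the Gm1821 term, 92 with DESeq2, 26 with Lars2 and 17 with the clock score, and 0 to 23 without 1 library. In females the 7 became 2 with library size only, 88 with DESeq2, 23 with Lars2 and 0 with the clock score, and 0 to 12 without 1 library. The interaction of sex and day gave 1 call without a filter, 11 with DESeq2, 1 with Lars2, 4 with the clock score, 2 with the Gm1821 term and 0 to 1 without 1 library. The interaction of fraction and day gave 2 to 14 without 1 library. The causes were not tested.

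With the replicate block there were 10 falls, and 60 rises of which 46 were shared. The block gave 13 calls in males, 3 in females and 20 in the fraction interaction, where Gsn was no longer called (adjusted p = 0.0606, edgeR). Replicate numbers did not pair the days: deviations of same-numbered PT libraries correlated at -0.317 to 0.343, and 3 of 7 correlated best with their own number.

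Signs turned only for uncalled genes, and the called ones were chosen by their change in these same libraries. Lrp2 was at -0.042 with library size only, -0.028 with limma-voom, -0.050 on RPKM, -0.023 with the replicate block, -0.0051 with Lars2, -0.0029 with the clock score and -0.52 in libraries of low Lars2. In those, Slc34a1 was at -0.081, C1qa at -0.22 and H2-Ab1 at -0.22. Cdkn1a was at -0.16 with Lars2 and -0.10 in libraries of high Lars2. With the Gm1821 term Il34 was at -0.041 and Cd74 at -0.019. In libraries of low Gm1821 Slc34a1 was at -0.11, Slc5a2 at -0.20, Slc22a6 at -0.078, Il34 at -0.063, Cd74 at -0.20 and H2-Ab1 at -0.042. Without 1 library, Cdkn1a lay between -0.11 and 0.25, Lrp2 between -0.23 and 0.16, and Slc34a1 between -0.021 and 0.27.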

Other observations

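Large differences that were not called repay a look. Of the genes tested, 94 were at least 4-fold higher at day 10 without a call, against 17 called, and 22 of the 94 had a mean of 5 CPM or more at day 10. They were chosen after their values were seen. Among the 22 are the class I histocompatibility genes H2-Q4, H2-K2, H2-Bl and H2-T10 and pseudogenes such as Gm1821 and Rpl3-ps1, many of which have near-identical copies. Gm1821 was at 1.41 to 2.74 CPM in the 7 day 5 libraries. At day 10 it was at 1.59 CPM in male replicate 1, 1.08 CPM in female replicate 1 and 54.8 to 132 CPM in the other 5. H2-Q4 went with it in males (1.92 CPM in replicate 1, 19.7, 17.0 and 23.1 CPM in replicates 2 to 4) but not in female replicate 3 (2.07 CPM). Fst (follistatin, which binds activins) was at 49.2 CPM in female replicate 2, and that library held 86.4% of its day 10 sum.

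Of the 244 genes that followed the Gm1821 split in PT libraries, 132 were higher and 112 lower in libraries of high Gm1821. The lower ones include Ndufs5 (-5.24 ± 0.14), Cpn1 (-4.04 ± 0.24), a carboxypeptidase subunit, and Hmgn2 (-2.53 ± 0.22). BC002163 was higher by 4.48 ± 0.26. Of the 66 genes called between the days, H2-Q2 and Gm4875 are among the 244.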
